A study of Mus musculus with 16 samples.

Results

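The comparison set 4 hippocampal arrays of Astro-D2KO mice after status epilepticus (SE) against 4 arrays of control mice after SE. The 8 arrays were chosen by their labels, out of 16 arrays in the series, and the remaining 8 held the same genotypes after saline. The mice were C57BL/6 and 8 to 10 weeks old. Control mice carried a cre labelled as glial and no floxed allele. Astro-D2KO mice carried the same glial cre together with a floxed allele of D2, the type 2 deiodinase gene Dio2. All groups therefore shared the cre, and all groups received lithium chloride at 10 mEq/kg. The SE groups were given pilocarpine at 65 mg/kg 18 h later, and the other groups were given saline. Pilocarpine is a muscarinic agonist that sets off a prolonged seizure after lithium. The labels and the study's text name neither the promoter of the cre, nor the time from pilocarpine to dissection, nor the sex of the mice, nor an array batch. The labels title each array as a mouse, and they do not say that equal replicate numbers mark a litter or a day. Values were log2 levels from 41345 probe sets, 22180 of which stood for 1 gene each, and a difference is Astro-D2KO minus control on that log2 scale throughout.

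Dio2 encodes the deiodinase that converts the prohormone thyroxine into T3, the active thyroid hormone, and in brain it is found chiefly in astrocytes. T3 made in astrocytes reaches neurons and oligodendrocytes, where nuclear receptors encoded by Thra and Thrb raise or lower their target genes. Thyroid hormone is known for its part in oligodendrocyte maturation and in the expression of myelin genes. SE is known for a burst of immediate early genes in neurons, followed by cytokines, stress proteins and reactive changes in astrocytes.

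The region just before the start of Dio2 is shown because Dio2 is the targeted gene. Its sequence, from RefSeq on GRCm38.p6, covers the 250 bases before the annotated start, at chr12:90739039-90739288 on the minus strand, and runs 5′ to 3′ in the direction of the gene.
Dio2: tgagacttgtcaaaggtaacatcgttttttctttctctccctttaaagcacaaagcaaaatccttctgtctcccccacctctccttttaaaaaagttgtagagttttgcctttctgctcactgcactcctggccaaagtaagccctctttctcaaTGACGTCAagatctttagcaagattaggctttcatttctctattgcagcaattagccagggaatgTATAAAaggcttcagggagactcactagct
Capitals mark matches to 2 motifs. TGACGTCA, the palindromic site of cyclic AMP responsive factors, lay 95 to 88 bases before the start, and TATAAA, the core promoter element, lay 30 to 25 bases before it. Of 32851 RefSeq windows searched on both strands, 1.55% held TGACGTCA and 12.4% held TATAAA. A match is a description of letters, and no binding was measured here.

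Dio2 was read first, because it checks the genotype labels. Control arrays after SE gave Dio2 levels of 9.51, 9.11, 9.24 and 7.99 for replicates 1 to 4. Astro-D2KO arrays after SE gave 8.91, 7.03, 7.17 and 7.12. Within the Astro-D2KO group, replicate 1 lay far above its 3 companions and above control replicate 4, while control replicate 4 lay below the other control arrays and was still above Astro-D2KO replicates 2 to 4, so the groups overlapped. The group means were 7.56 ± 0.91 (SD, n = 4) in Astro-D2KO and 8.96 ± 0.67 (SD, n = 4) in control. The difference of -1.41 ± 0.35 (SE of the fit), or 2.66-fold, had an adjusted p of 0.532 in limma and an exact permutation p of 0.0571, two-sided. Under saline the genotypes did not overlap. Control mice had 7.87, 8.25, 8.17 and 8.28, and Astro-D2KO mice had 6.75, 6.52, 7.09 and 6.77. The saline difference was -1.36, or 2.57-fold, with an exact permutation p of 0.0286, the smallest that 4 arrays against 4 can give. The difference after SE minus that under saline was -0.05 (adjusted p = 1.00 in limma). A dimmer Dio2 probe set, with group means of 4.83 and 4.95 after SE, differed by -0.12 (exact permutation p = 0.657), and the mean of both probe sets by -0.77. Where the probe sets lie relative to the floxed part is not known from the labels.

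The array labelled Astro-D2KO SE replicate 1 thus carried a Dio2 level near the control arrays, and the array labelled control SE replicate 4 a level between the genotypes. Over all 22180 genes, control replicate 4 correlated more closely with Astro-D2KO replicates 2 and 3 (r = 0.993 and 0.992) than with control replicates 1 to 3 (0.986 to 0.988). Astro-D2KO replicate 1 correlated about as well with its own group (0.990 to 0.993) as with control replicates 1 to 3 (0.990 to 0.993). On the first principal component of the 8 arrays, which held 28.8% of the variance, control replicate 4 lay at 22.1, beyond Astro-D2KO replicates 2 and 3 at 12.7 and 13.97, and control replicates 1 to 3 lay between -20.3 and -8.14. Astro-D2KO replicates 1 and 4 lay side by side there, at -2.23 and -2.51, so this component did not single out Astro-D2KO replicate 1. Results are given with all 8 arrays. Many, but not all, are also given without Astro-D2KO replicate 1 and control replicate 4, which leaves 3 against 3. Where that second value is missing, the result cannot be taken to have stayed the same. Control replicate 4 was chosen by Dio2 and by its profile over all genes, and Astro-D2KO replicate 1 by Dio2. No value without the 2 arrays is therefore independent of that choice. Without them, Dio2 was 7.10 ± 0.07 in Astro-D2KO and 9.29 ± 0.21 in control (SD, n = 3). It fell by 2.18 on the log2 scale, or 4.55-fold (adjusted p = 1.35e-06 in limma). The exact permutation p was 0.10, the smallest that 3 against 3 can give. Leaving out Astro-D2KO replicate 1 alone gave -1.86 (adjusted p = 0.0262), and leaving out control replicate 4 alone gave -1.73 (adjusted p = 0.129). Both genotypes' labels were kept as given in every fit.

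**Figure D1:**
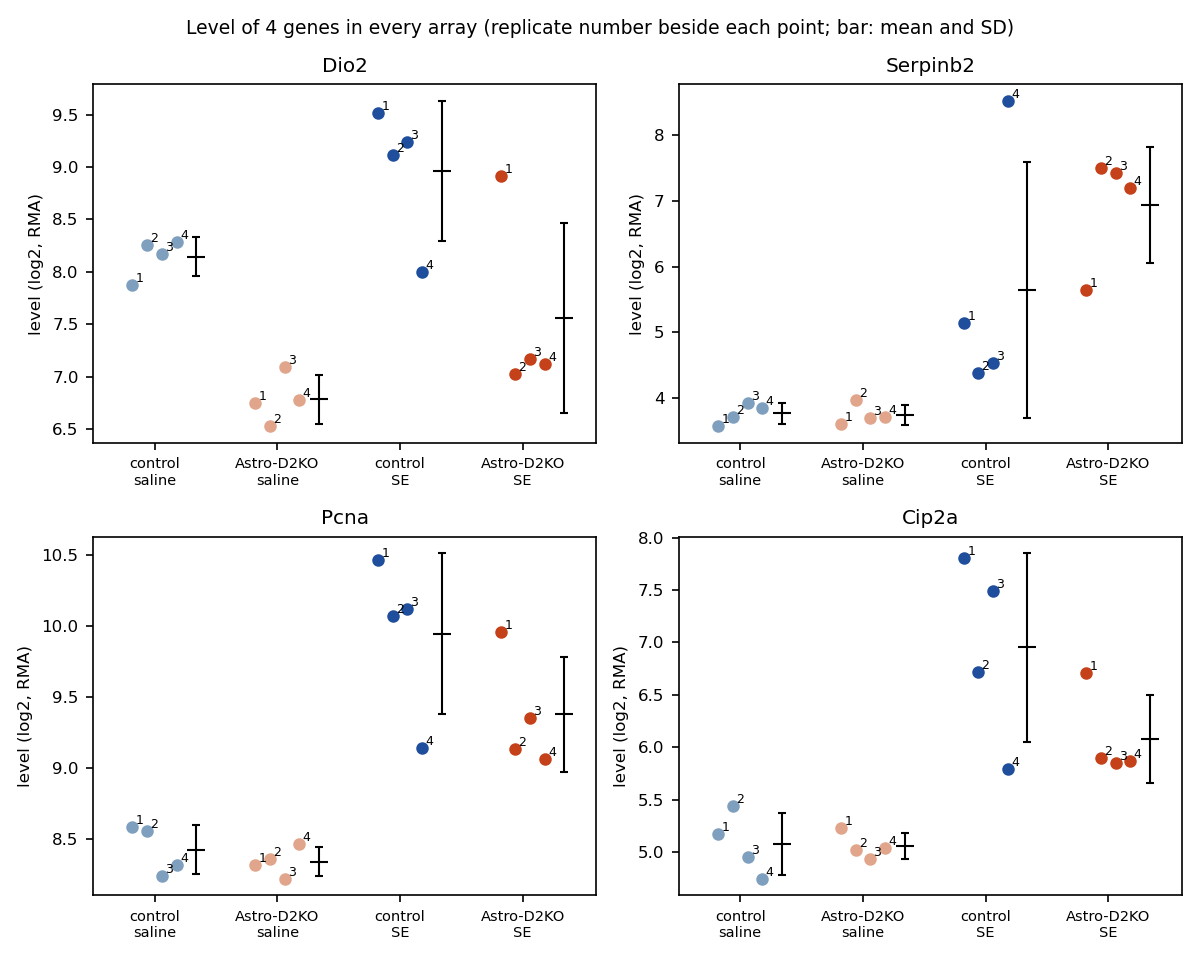
Log2 level (RMA) of Dio2, Serpinb2, Pcna and Cip2a in each of the 16 arrays, grouped by genotype and treatment, with the replicate number beside each point and the mean and SD of 4 arrays as a bar. After SE, Astro-D2KO replicate 1 and control replicate 4 lie away from their groups in all 4 panels, for Dio2 at 8.91 and 7.99.

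Marker genes of the hippocampus and of neighbouring regions were both read on every array. Mean levels on the 8 SE arrays ran from 8.07 to 8.48 for 7 CA1 markers, 7.21 to 7.68 for 13 dentate granule cell markers, 8.22 to 8.98 for 12 neocortex markers and 7.12 to 7.66 for 6 striatum markers. Levels of different probe sets cannot be set against each other, so these means do not say how much of each tissue was present. Choroid plexus carried along differed between arrays: Ttr, its transthyretin gene, ran from 7.45 to 13.03, and was high in Astro-D2KO replicate 4 and in control replicates 1 and 4. Eif2s3y on the Y chromosome lay between 7.90 and 8.35 and Xist between 3.94 and 4.33 in the 8 arrays, so the groups did not differ in that pattern. In bulk tissue, fewer cells of a type and less RNA per cell cannot be told apart.

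With all 8 arrays, no gene passed an adjusted p of 0.05 in limma (0 of 22180, 0%). The smallest adjusted p was 0.0753, for Gm12409, a dim predicted gene named after its values were seen. At an unadjusted p under 0.05 there were 1358 genes (6.12%), 663 higher in Astro-D2KO (2.99%) and 695 lower (3.13%). The 4 against 4 arrays did not overlap for 340 higher genes (1.53%) and 311 lower genes (1.4%). Differences above 1.5-fold were few, with 14 higher and 18 lower, and the median over all genes was 0.01. Without the 2 arrays, 5 genes passed (0.0225%), 1 of them higher (0.00451%) and 4 lower (0.018%), and 2508 genes had an unadjusted p under 0.05 (11.3%), 1261 higher (5.69%) and 1247 lower (5.62%). Without Astro-D2KO replicate 1 alone, 1 gene passed, which was Dio2. Leaving out control replicate 4 alone let 2 pass (0.00902%), Serpinb2 higher and Fa2h lower, each at an adjusted p of 0.0452.

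**Figure D2:**
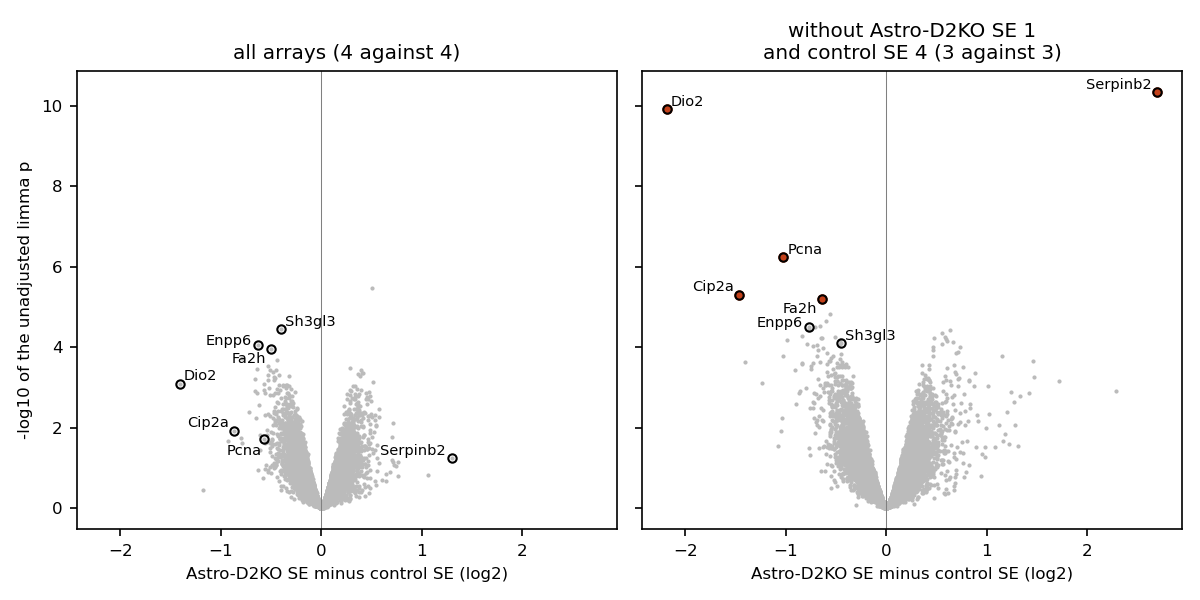
Difference on the log2 scale (x axis) against -log10 of the unadjusted limma p (y axis), 1 point per gene, with all arrays on the left and without Astro-D2KO SE replicate 1 and control SE replicate 4 on the right; filled red points passed an adjusted p of 0.05. No gene is filled on the left, and 5 are on the right, where Serpinb2 lies at 2.70 and Dio2 at -2.18.

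Oligodendrocyte markers had lower mean levels in Astro-D2KO than in control arrays after SE, although none passed singly and the list was not tested as a set. Its members were read on the same 8 arrays and do not vary independently. The list was also chosen with earlier results of these data known, so the counts below are a description. Of 11 measured oligodendrocyte markers, 10 were lower at an unadjusted p under 0.05 and 0 were higher, where 3.13% of all genes were lower at that level. Their median difference was -0.38, and the members ran from -0.72 to -0.26. Without the 2 arrays, 11 of 11 were lower at that level (5.62% of all genes) with a median of -0.51, and 0 passed the adjusted threshold. Leaving out each array in turn kept between 7 and 11 of the 11 at that level and medians from -0.45 to -0.31. The count was 7 without Astro-D2KO replicate 2 or control replicate 2, 11 without Astro-D2KO replicate 1 (3.62% of all genes) and 11 without control replicate 4 (5.08% of all genes). Astro-D2KO replicate 2 had the lowest level of the 8 arrays for all 11 members.

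The enzymes and structural proteins of myelin gave the clearest members. Ugt8a, which makes the galactolipids of myelin, read 9.61, 9.18, 9.47 and 9.45 in Astro-D2KO and 10.16, 9.86, 9.79 and 9.72 in control. No Astro-D2KO array reached a control array for Ugt8a, and the difference was -0.46 ± 0.11 (unadjusted p = 5.73e-04, adjusted p = 0.532). Mag, the adhesion protein that faces the axon, read 9.31, 8.80, 9.09 and 9.36 against 9.61, 9.85, 9.38 and 9.44. Its groups were narrowly apart and differed by -0.43 ± 0.14. Mal, a proteolipid of compact myelin, read 10.88, 10.63, 10.76 and 10.63 against 11.23, 11.19, 10.97 and 10.91, again without overlap, a difference of -0.35 ± 0.09. Mbp, the basic protein that holds the membrane layers together, read 8.81, 8.45, 8.59 and 8.65 against 9.001, 9.22, 9.02 and 8.79. Only control replicate 4 came within the Astro-D2KO range of Mbp, and the difference was -0.38 ± 0.10 with all arrays and -0.51 without the 2.

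Aspa, the oligodendrocyte enzyme that splits N-acetylaspartate, had the largest difference on the list. It read 6.78, 5.96, 6.38 and 6.81 in Astro-D2KO and 7.26, 7.42, 7.57 and 6.57 in control. Astro-D2KO lay below control replicates 1 to 3 in every array, while control replicate 4 lay among the Astro-D2KO values, and the difference of -0.72 ± 0.22 grew to -1.03 without the 2 arrays (adjusted p = 0.0853). Cldn11, the tight junction protein of myelin, differed by -0.44, Cnp, a phosphodiesterase of the cytoplasmic loops, by -0.34, Ermn, a cytoskeletal protein of the outer loops, by -0.33, Opalin by -0.38 and Mobp by -0.33. Mog, a glycoprotein of the outermost membrane, differed by -0.26 and was the member that missed the unadjusted threshold (unadjusted p = 0.0977, adjusted p = 0.856).

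**Figure D3:**
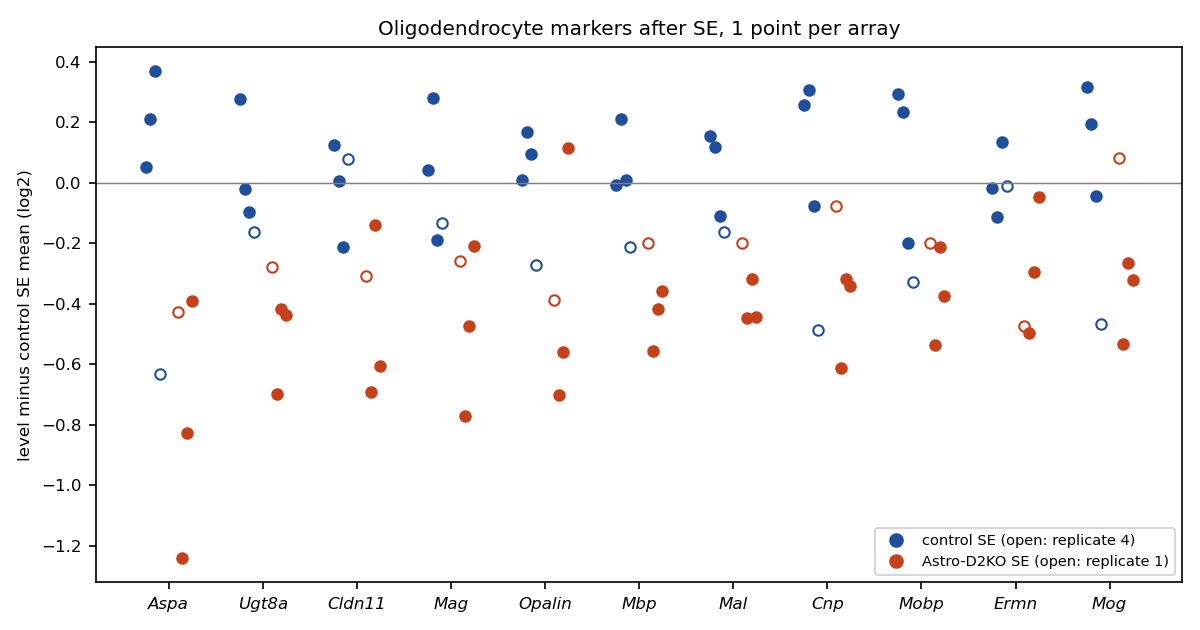
Level of 11 oligodendrocyte markers in each SE array, as log2 level minus the control SE mean of that gene (y axis), for 4 control arrays in blue and 4 Astro-D2KO arrays in red, with control replicate 4 and Astro-D2KO replicate 1 as open circles. Most red points lie below 0 for every gene, and the groups are apart for Ugt8a, Mag and Mal.

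The list mean was 9.47, 9.48, 9.31 and 9.08 in control arrays after SE and 9.09, 8.67, 8.95 and 9.03 in Astro-D2KO arrays after SE. Control replicate 4 stood within the Astro-D2KO values, and the other control arrays stood above them. Saline arrays lay between 9.26 and 9.40 in control and between 9.14 and 9.29 in Astro-D2KO. Under saline the median difference of the list was -0.08 and 0 of 11 members reached an unadjusted p under 0.05, where 3.99% of all genes did in either direction. The difference after SE minus that under saline had a median of -0.31, with 6 of 11 members lower at an unadjusted p under 0.05 against 2.28% of all genes, and 0 past the adjusted threshold. Of 9 precursor markers, 0 reached an unadjusted p under 0.05, with a median of -0.09. Without the 2 arrays, 2 were lower at that level (5.62% of all genes), with a median of -0.27. These were Olig1 and Olig2, lineage transcription factors, at -0.37 and -0.40 there. With all arrays they differed by -0.19 and -0.25 after SE, and by -0.33 and -0.24 under saline. The median of the precursor list under saline was -0.13. Neither list was tested against the other.

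Among all genes, 12 lower genes above the median level were chosen for non-overlapping arrays and the smallest unadjusted p, Ugt8a and Mal among them. They were selected on this difference, so their p-values describe the selection. Sh3gl3, an endophilin of membrane curvature, read 7.69, 7.72, 7.53 and 7.75 in Astro-D2KO and 8.18, 8.13, 8.03 and 7.96 in control. Its difference of -0.40 ± 0.07 had an adjusted p of 0.397, the smallest among the lower genes named here. Enpp6, a choline phosphodiesterase of newly formed oligodendrocytes, read 6.26, 5.75, 5.91 and 6.07 against 6.73, 6.50, 6.81 and 6.46. All Astro-D2KO arrays were below all control arrays, and the difference was -0.63 ± 0.12 (adjusted p = 0.532). Fa2h, which hydroxylates the fatty acids of myelin lipids, read 8.18, 7.92, 8.17 and 8.04 against 8.64, 8.69, 8.71 and 8.27. Its difference was -0.50 ± 0.10 with all arrays (adjusted p = 0.532), and Fa2h fell by 0.64 on the log2 scale without the 2 arrays (adjusted p = 0.0278).

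The other lower genes of this choice lay between -0.53 and -0.26 with all arrays. Ptch1, the Hedgehog receptor, differed by -0.53, Carhsp1, an RNA-binding phosphoprotein, by -0.47 and Taf13, a subunit of the basal transcription factor TFIID, by -0.45. Hacd1, an enzyme of very long chain fatty acid elongation, differed by -0.35, Jmy, an actin nucleator, by -0.32 and Slc44a1, a choline transporter, by -0.26. E130308A19Rik differed by -0.30. Under saline, Fa2h, Sh3gl3, Jmy, Taf13 and Slc44a1 differed by 0.02 or less either way, while Ptch1 differed by 0.13 and Enpp6 by -0.16. The change of the genotype difference from saline to SE was -0.52 for Fa2h, -0.67 for Ptch1 and -0.41 for Sh3gl3, each with an adjusted p of 0.998.

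The higher genes chosen by the same rule showed smaller differences, from 0.23 to 0.47 with all arrays. Gpr101, an orphan receptor, read 7.05, 7.14, 7.12 and 6.96 in Astro-D2KO and 6.89, 6.65, 6.71 and 6.68 in control, a difference of 0.33 ± 0.08 (adjusted p = 0.532). Cnr1, the cannabinoid receptor CB1, read 8.17, 8.12, 8.19 and 8.11 against 7.95, 7.76, 7.93 and 7.94. It differed by 0.26 ± 0.07 after SE (adjusted p = 0.550) and by 0.20 under saline. Fbn2, a fibrillin of the extracellular matrix, differed by 0.37, Imp3, of ribosomal RNA processing, by 0.37, and Zfp992 by 0.47 with control replicate 2 far below its group at 5.54. Zfp992 had the opposite sign under saline, at -0.41 (unadjusted p = 0.0145), and its change from saline to SE was 0.87 (unadjusted p = 6.98e-04, adjusted p = 0.998). The mitochondrial protease Clpp and the mitochondrial malic enzyme Me3 differed by 0.23 each, Get1, of membrane protein insertion, by 0.29, Fam135b by 0.33, Phf11a by 0.33, A130010J15Rik by 0.26 and Adamtsl2 by 0.24. Their adjusted p-values ran from 0.532 to 0.662.

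Of the 5 genes that passed without the 2 arrays, Serpinb2 rose and Dio2, Pcna, Cip2a and Fa2h fell. Serpinb2, the inhibitor of plasminogen activators, read 5.63, 7.50, 7.43 and 7.20 in Astro-D2KO and 5.13, 4.37, 4.52 and 8.53 in control. Control replicate 4 held the highest level of all and Astro-D2KO replicate 1 the lowest of its group. The difference was 1.30 ± 0.64 with all arrays (adjusted p = 0.827) and 2.70 ± 0.17, or 6.50-fold, without the 2 (adjusted p = 1.03e-06). Saline levels ran from 3.56 to 3.96 in both genotypes, and in the fit without the 2 arrays Serpinb2 was the only gene past the threshold in the change from saline to SE (2.72, adjusted p = 4.92e-05).

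Pcna, the sliding clamp of DNA replication and repair, read 9.96, 9.14, 9.35 and 9.07 in Astro-D2KO and 10.47, 10.07, 10.12 and 9.14 in control. The arrays in doubt again read near the opposite group. The difference was -0.57 ± 0.22 with all arrays (adjusted p = 0.728) and -1.03 ± 0.13 without the 2 (adjusted p = 0.00432). Cip2a, an inhibitor of the phosphatase PP2A, read 6.70, 5.90, 5.85 and 5.87 against 7.81, 6.72, 7.49 and 5.79, a difference of -0.87 ± 0.31 with all arrays (adjusted p = 0.714) and of -1.47 ± 0.21 without the 2 (adjusted p = 0.0278). These 5 calls were made without arrays chosen on Dio2 and, for control replicate 4, on a profile that includes the other 4 genes. They are given as a description. What set these arrays apart was not tested.

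Thyroid hormone genes, Dio2 included, showed no difference past the adjusted threshold with all arrays, and only Dio2 passed it without the 2. Of 17 measured genes of hormone metabolism, transport and receptors, 1 was lower at an unadjusted p under 0.05, Dio2 itself, and the median difference was 0.00. Dio3, which inactivates T3, differed by -0.03, the receptor genes Thra and Thrb by 0.00 and -0.11, and Rxrb, a receptor partner, by 0.12. The signs of Dio3 and Thra turned under other settings. Crym, a cytosolic T3-binding protein, was lower at an unadjusted p under 0.05 without the 2 arrays (-0.44), as was Dio2. In that fit 5.62% of all genes were lower, and the median of the list was -0.03.

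Genes that T3 raises in brain had a median of -0.10, and some of them were myelin genes. Of 22 measured, 4 were lower at an unadjusted p under 0.05 (3.13% of all genes) and 0 higher. They were Mbp, Mag, Nefm and Luzp1. With Mbp and Mag left out, 2 of 20 were lower and the median was -0.05. Nefm, the medium neurofilament chain, read 8.51, 8.16, 8.24 and 8.13 in Astro-D2KO and 8.62, 8.71, 8.59 and 8.35 in control. Only the arrays in doubt overlapped, and Nefm differed by -0.31 ± 0.10 with all arrays and -0.46 without the 2 (adjusted p = 0.0663). The T3-responsive factor Klf9 differed by -0.15 (unadjusted p = 0.134) and by -0.29 without the 2, and the corepressor Hr by -0.01. In the 3 against 3 arrays, 7 of 22 were lower (5.62% of all genes) with a median of -0.14. Of 12 genes that T3 lowers, 0 reached an unadjusted p under 0.05 with or without those arrays, with medians of -0.01 and 0.00; Scg2, a granin of secretory vesicles, differed by 0.20 and Agbl3 by -0.14.

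Activity genes were at high levels in both genotypes after SE. Of 35 immediate early genes, 0 reached an unadjusted p under 0.05, with a median of -0.10. The list mean was 9.63, 9.40, 9.47 and 9.05 in control and 9.29, 9.25, 9.26 and 9.47 in Astro-D2KO, against 6.98 to 7.42 in the saline arrays of both genotypes. Control replicate 4 was the lowest array of the 8. In the 3 against 3 arrays, 7 of 35 were lower (5.62% of all genes) and 0 higher, and the median was -0.14. Fos, a component of AP-1, read 9.65, 9.55, 9.52 and 9.96 in Astro-D2KO and 10.09, 9.87, 9.93 and 8.80 in control, a difference of 0.00 that was -0.29 without the 2. Npas4, a neuronal activity factor, read 10.31, 10.65, 10.44 and 11.36 against 11.57, 11.13, 11.39 and 8.96. Its difference of -0.07 became -0.55 without the 2, and its sign and that of Fos turned in other fits with an array left out. Arc, a synaptic capsid-like protein, differed by -0.22 and -0.46, the zinc finger factor Egr3 by -0.25 and -0.44, with all arrays and without the 2, and Klf2 by -0.20 and -0.15.

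Later activity genes and neuropeptides had few members at the unadjusted level. Of 31, 0 were higher and 1 was lower at an unadjusted p under 0.05, Baz1a, a chromatin remodelling subunit, at -0.36, and the median was 0.01. Sorcs3, a sorting receptor induced by activity, differed by 0.47 after SE and 0.64 under saline. Without the 2 arrays, 3 were higher (5.69% of all genes) and 2 lower (5.62%). The former were the neuropeptide genes Npy (1.42) and Penk (0.81) with Sorcs3 (0.79), and the latter Baz1a (-0.49) and Nefl (-0.31).

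**Figure D4:**
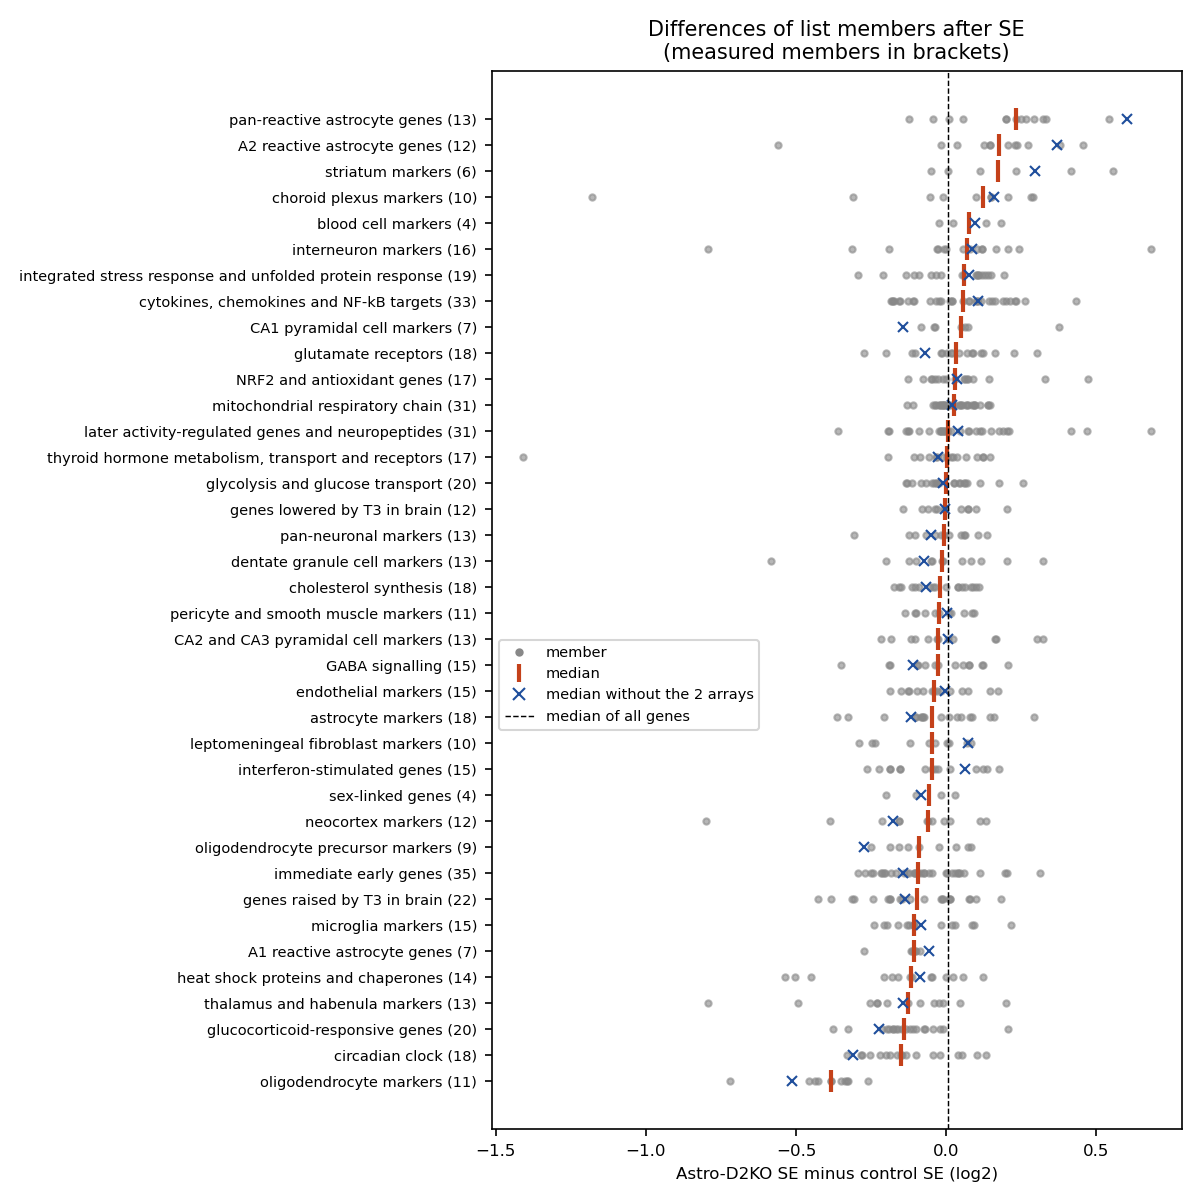
Difference on the log2 scale of every measured member of 38 gene lists (grey points), with the list median as a red bar and the median without Astro-D2KO SE replicate 1 and control SE replicate 4 as a blue cross; the dashed line is the median of all genes, 0.01. Oligodendrocyte markers lie lowest, at -0.38 with all arrays, and pan-reactive astrocyte genes highest, at 0.23.

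Pan-reactive and A2 reactive astrocyte genes had medians above 0 and A1 reactive genes a median below 0, with few members at the unadjusted level and arrays that scattered widely. Of 13 pan-reactive genes, 1 was higher at an unadjusted p under 0.05, Aspg (0.25), where 2.99% of all genes were, and the median was 0.23. The list mean was 7.86, 8.19, 8.66 and 8.00 in Astro-D2KO and 7.85, 7.62, 7.75 and 8.70 in control, so control replicate 4 was the highest of the 8. Cd44, a hyaluronan receptor, read 6.66, 7.22, 7.73 and 7.07 against 6.05, 6.16, 6.33 and 7.97. Its difference of 0.54 ± 0.46 was 1.16 without the 2 arrays (adjusted p = 0.348). Without them, 4 of 13 were higher, with a median of 0.60, against 5.69% of all genes. Saline list means spanned 6.84 to 7.83 in control and 6.74 to 8.11 in Astro-D2KO, a spread about as wide as that after SE.

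On the A2 list, reactive genes described after ischaemia, control replicate 4 was again highest, at 8.13 against 7.24 to 7.81 in the other 7 arrays. Of 12, 0 were higher and 1 lower at an unadjusted p under 0.05, with a median of 0.18, and without the 2 arrays 4 were higher (5.69% of all genes) and 1 lower (5.62%) with a median of 0.37. The lower gene in both was Cd109, a membrane glycoprotein, which read 6.38, 6.12, 6.16 and 6.09 in Astro-D2KO and 6.91, 6.44, 6.70 and 6.93 in control. Its arrays did not overlap, and the difference was -0.56 ± 0.15 (unadjusted p = 0.00139, adjusted p = 0.532). B3gnt5, a glycosyltransferase, differed by 0.27. Of 7 A1 genes, described after endotoxin, 7 were below 0, where 47.5% of all genes were, and 0 reached an unadjusted p under 0.05, with a median of -0.11; H2-T23 differed by -0.27 and Amigo2 by -0.12. The 18 markers of astrocytes in general had 0 at that level and a median of -0.05. When the 2 arrays were left out, 1 of the 18 was higher (5.69% of all genes) and 3 were lower (5.62%), with a median of -0.12. Their gap junction genes Gja1 and Gjb6 differed by -0.36 and -0.33 with all arrays, and by -0.69 and -0.53 without the 2.

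**Figure D5:**
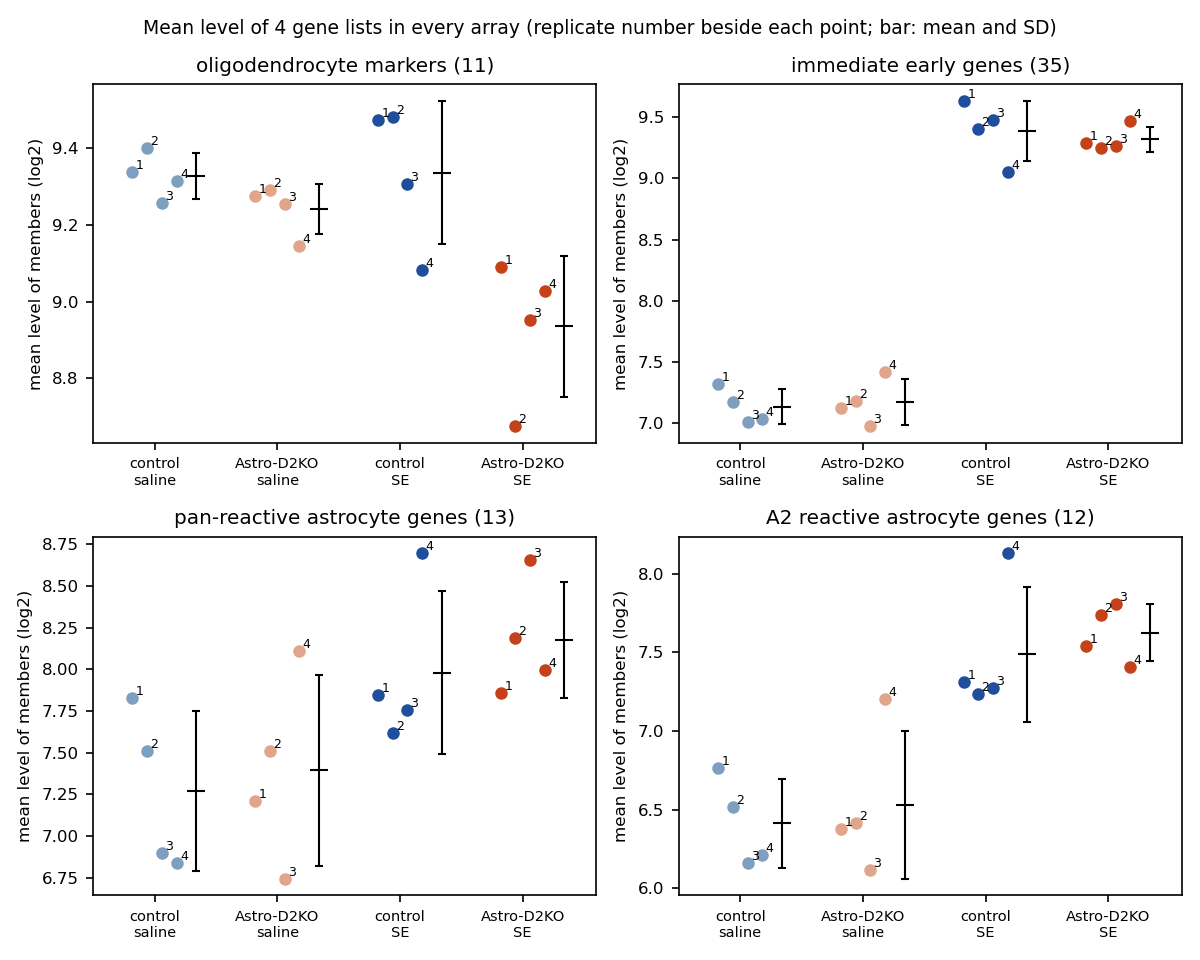
Mean log2 level of the members of 4 gene lists in each of the 16 arrays, with replicate numbers and the mean and SD of 4 arrays as a bar. After SE, control replicate 4 is the lowest control array for oligodendrocyte and immediate early genes, at 9.08 and 9.05, and the highest of the 8 SE arrays for pan-reactive and A2 genes, at 8.70 and 8.13.

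Inflammatory genes showed no difference past the threshold. Of 33 cytokines, chemokines and NF-kB targets, 0 reached an unadjusted p under 0.05, with a median of 0.06. Without the 2 arrays, 3 were higher (5.69% of all genes), with a median of 0.11. The chemokine Ccl4 differed by 0.26 and by 0.36 without the 2, and Nfkbiz, a regulator of NF-kB, by -0.18. Of 15 interferon-stimulated genes, 0 reached that level either way; their median was -0.05 with all arrays and 0.06 without the 2, and Isg15 and Xaf1 differed by -0.26 and -0.19. Of 15 microglia markers, 0 reached it either way, with a median of -0.11, C1qc, a complement subunit, at -0.21 and Selplg, an adhesion ligand, at -0.20.

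Stress response lists held 0 or 1 member each at the unadjusted level. Among 17 NRF2 and antioxidant genes, 1 was higher at an unadjusted p under 0.05, Gsr, the glutathione reductase (0.47, unadjusted p = 0.0488), and the median was 0.03; Osgin1 differed by -0.13. Of 14 heat shock genes, 11 were below 0 with a median of -0.12, 1 was lower at that level, the J-domain cochaperone Dnajb1 (-0.45), and Hspa4l differed by -0.18. The change of their genotype difference from saline to SE had a median of -0.23, with 2 of 14 lower (2.28% of all genes). Of 19 genes of the integrated stress and unfolded protein responses, 0 reached that level, with a median of 0.06, and the disulphide isomerase Pdia6 and the degradation factor Edem1 differed by 0.19 and -0.13. In the 3 against 3 arrays the counts were 2 higher, 2 lower and 2 higher, respectively, where 5.69% of all genes were higher and 5.62% lower.

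Glucocorticoid-responsive and clock genes had medians below 0 and few members at the unadjusted level with all arrays. Of 20 glucocorticoid-responsive genes, 19 were below 0 (47.5% of all genes), with a median of -0.14, and 1 was lower at an unadjusted p under 0.05 (3.13% of all genes). That gene was Pdk4, a kinase that restrains pyruvate oxidation, which read 7.23, 6.89, 6.90 and 7.09 in Astro-D2KO and 7.50, 7.65, 7.57 and 6.90 in control, a difference of -0.38 that was -0.61 without the 2. Leaving out the 2 arrays gave 4 of 20 lower (5.62% of all genes), with a list median of -0.22. Under saline the median of the list was -0.16, with 6 of 20 lower against 2.01% of all genes. Of 18 clock genes, 14 were below 0 and 0 reached that level, with a median of -0.15, and 6 were lower without the 2 arrays (5.62% of all genes), with a median of -0.31. Rora, a nuclear receptor of the clock, differed by -0.25 and -0.39, and Nr1d2, a clock repressor, by -0.28 and -0.32.

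Metabolic genes stayed close to the median gene. Of 31 genes of the respiratory chain, 0 reached an unadjusted p under 0.05 with or without the 2 arrays, with a median of 0.03; Ndufs3 and Uqcrfs1 differed by 0.14 each. Of 20 glycolysis and glucose transport genes, 1 was higher, the lactate exporter Slc16a3 (0.26), the median was 0.00, and the transporter gene Slc16a7 differed by -0.11. Of 18 cholesterol synthesis genes, 0 reached that level, with a median of -0.02. Insig1, which holds back sterol synthesis, differed by -0.17 with arrays that did not overlap (unadjusted p = 0.0605), and Lss by -0.15.

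Receptor and transmitter genes held single members at the unadjusted level. Of 18 glutamate receptors, 1 was higher, the kainate subunit Grik4 (0.30), with a median of 0.03, and Grin2b differed by 0.12. When the 2 arrays were left out, 3 were higher (5.69% of all genes) and 2 lower (5.62%), with a median of -0.07. Of 15 genes of GABA signalling, 1 was lower, the chloride importer Slc12a2 (-0.35), with a median of -0.03. Leaving out the 2 arrays gave 1 higher (5.69% of all genes) and 4 lower (5.62%), with a median of -0.11. Slc32a1, the vesicular GABA transporter, differed by -0.19, and by 0.07 as the mean of its probe sets.

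Neuronal marker lists were near 0 by median. For 13 pan-neuronal markers the median was -0.01, with Nefm lower and Syn1, a synaptic vesicle protein, higher by 0.11 in arrays that did not overlap. Dentate granule cell markers had 0 of 13 at an unadjusted p under 0.05 and a median of -0.02, with Tdo2 at -0.58 and Dgat2 at 0.20. Tdo2, a tryptophan oxygenase, read 5.81, 4.26, 4.47 and 4.21 in Astro-D2KO and 5.86, 5.12, 6.16 and 3.94 in control, so the arrays in doubt read near the opposite groups, and its difference was -1.40 without them (adjusted p = 0.0980). CA1 markers had 1 of 7 higher, Wfs1 (0.37), a protein of the endoplasmic reticulum, and a median of 0.05 that was -0.14 without the 2; Mpped1 differed by 0.06. CA2 and CA3 markers had 2 of 13 higher, Rgs14 (0.32) and Grik4, with a median of -0.03. Interneuron markers had 1 of 16 higher, the neuropeptide gene Cck (0.24), and 1 lower, the calcium buffer Calb2 (-0.79), with a median of 0.07.

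Markers of neighbouring tissue had 0 or 1 member per list at the unadjusted level with all arrays. Calb2 is also on the list of thalamus and habenula markers, of which 11 of 13 were below 0 and 1 was lower at that level, with a median of -0.13 and Tcf7l2 at -0.23; Calb2 was 6.37 in control replicate 2 and 7.75 to 7.84 in the other control arrays. Of 12 neocortex markers, 9 were below 0 and 1 was lower at that level, Lamp5 (-0.80, and -1.24 without the 2), with a median of -0.06, and Rasgrf2 differed by -0.39. Without the 2 arrays, 3 were lower (5.62% of all genes) with a median of -0.18. Of 6 striatum markers, 0 reached that level, with a median of 0.17, the dopamine receptor gene Drd1 at 0.56 and Rgs9 at 0.23; without the 2 arrays 3 were higher (5.69% of all genes) with a median of 0.29. Penk and Tac1 of the striatum list are also later activity genes, and Egr4 and Nr4a2 of the neocortex list are also immediate early genes. The neocortex list mean was 7.56 to 8.06 in the saline arrays and 8.22 to 8.98 in the SE arrays. For the striatum list it was 6.60 to 7.02 and 7.12 to 7.66. The part of activity in these lists was not tested. Endothelial, pericyte and smooth muscle, choroid plexus, leptomeningeal and blood cell markers had 0 members at that level, with medians of -0.04, -0.03, 0.12, -0.05 and 0.08. Among their leading members, Abcb1a differed by -0.19, Flt1 by -0.13, Tagln by -0.14, Myh11 by 0.09, Kcne2 by -0.31, Dcn by -0.29, Lum by -0.25, S100a8 by 0.18 and Cd3e by 0.13, and the signs of Tagln and Lum turned without the 2 arrays. The part of dissection and cell makeup in the oligodendrocyte, Calb2 and Lamp5 differences was not tested.

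The saline arrays gave the genotype difference without SE. No gene passed adjustment under saline (smallest adjusted p 0.804), and 885 genes (3.99%) had an unadjusted p under 0.05 there, 439 higher (1.98%) and 446 lower (2.01%). The 2 comparisons share no arrays, and across all genes their differences correlated at r = 0.10 (rho 0.07), a description over genes, which are not independent. The change of the difference from saline to SE had 0 genes past adjustment, with a smallest adjusted p of 0.971, and 1031 genes (4.65%) at an unadjusted p under 0.05, 525 higher (2.37%) and 506 lower (2.28%). The 5 genes with the smallest p there were all dim: Gm12409 at 0.55, Gm16796 at -0.55, Olfr707 at 0.61, Gm8579 at -0.62 and Tagap1 at -0.81. Dio2 under saline passed in the limma fit without the 2 arrays (adjusted p = 2.71e-04) and not in that with all arrays (adjusted p = 0.999). Its saline arrays and its saline difference of -1.36 were the same in both fits. The 4 groups share 1 spread per gene, and the SE of that difference was 0.35 with all arrays and 0.12 without the 2.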

How the data were processed

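Total RNA of hippocampus had been hybridised to Affymetrix arrays. The deposited values are on a log2 scale and were made with RMA, per the submitters' processing notes; no version is named, and the log base was inferred from values of 1.70 to 13.79. Of 41345 probe sets, 23521 carried 1 gene symbol, 1814 several and 16010 none; the brightest probe set stood for each of 22180 genes. Limma 3.58.1 in R 4.3.3 fitted 4 group means to 16 arrays (two-sided, Benjamini-Hochberg over 22180 genes, threshold 0.05). Residual and prior degrees of freedom summed to 17.3. Dio2 also had an exact permutation test with 70 arrangements. Arrays carry no read depth, so 4 per group limits precision; the median SE of a difference was 0.106. The fit was also run on simulated data with independent normal noise for each gene. No simulated array was made to stand apart from its group, so this checked the code and not the fit to these arrays.

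The comparison, its 38 gene lists (600 symbols, 546 measured) and the tests were chosen with earlier results of these data known. Genes named were those past the threshold with non-overlapping arrays; up to 12 each way that did not pass but did not overlap and lay above the median gene, by p; those passing without the 2 arrays; the 2 members of each list with the smallest p (the rule allowed up to 4); the 5 with the smallest interaction p; and Dio2, Dio3, Thra, Thrb, Hr, Klf9, Fos, Npas4 and Arc. The whole oligodendrocyte list, Gm12409, Ttr, Xist and further members were named after their values were seen. Equal replicate numbers were not treated as pairs in the main fit. Figures were drawn with matplotlib 3.10.9.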

Additional observations from a re-analysis of the deposited data

Results flagged for a closer look

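In 312 sets of 4 SE arrays (118 named genes and 38 list means, in 2 groups), 27 values stood apart from the other 3 arrays of their group by Dixon's test, which flags about 1 in 20 groups by chance. Of these, 12 fell in control replicate 4, 5 in Astro-D2KO replicate 1, 3 each in Astro-D2KO replicates 3 and 4 and control replicate 2, and 1 in control replicate 3. Some genes were named because they passed only without these arrays, among them Dio2, Serpinb2 and Cip2a in Astro-D2KO replicate 1, and named genes are not independent of each other, so the tally cannot be set against chance.

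In the array labelled control SE replicate 4, the high values were B3gnt5 at 6.71 (others 6.09 to 6.13), Cd44 at 7.97 (6.05 to 6.33), Rgs9 at 8.06 (7.57 to 7.61), Sorcs3 at 10.49 (9.46 to 9.61) and Tcf7l2 at 6.63 (6.27 to 6.29). The list means of A2 reactive astrocyte genes, at 8.13 (7.24 to 7.31), and of striatum markers, at 7.64 (7.12 to 7.18), were high there too. Its low values were Fa2h at 8.27 (8.64 to 8.71), Jmy at 8.58 (8.75 to 8.77), Npas4 at 8.96 (11.13 to 11.57), Olig2 at 7.89 (8.46 to 8.57) and the list mean of glucocorticoid-responsive genes at 8.17 (8.46 to 8.50).

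In the array labelled Astro-D2KO SE replicate 1, Dio2 was high at 8.91 (7.03 to 7.17), as were Cip2a at 6.70 (5.85 to 5.90), Tdo2 at 5.81 (4.21 to 4.47) and the list mean of CA1 markers at 8.48 (8.15 to 8.19), and Serpinb2 was low at 5.63 (7.20 to 7.50).

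Control replicate 2 was low for Calb2 at 6.37 (7.75 to 7.84), Cnr1 at 7.76 (7.93 to 7.95) and Zfp992 at 5.54 (6.19 to 6.30). The cholesterol synthesis list mean was low in control replicate 3 at 8.37 (8.49 to 8.50). Astro-D2KO replicate 3 was high for Lss at 7.13 (6.80 to 6.83), Nr1d2 at 8.23 (7.80 to 7.84) and the interferon-stimulated list mean at 6.31 (5.66 to 5.74). Astro-D2KO replicate 4 was high for Kcne2 at 6.29 (5.63 to 5.71), Rora at 8.00 (7.66 to 7.70) and Uqcrfs1 at 6.68 (6.61 to 6.62).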

How the results depend on the processing

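Under 25 alternative settings, 16 of which left out 1 array each, 2872 of 2904 values for 117 named genes other than Dio2 kept their direction and their side of the threshold, 6 newly passed it and 26, of 8 genes, changed sign. Without both arrays in doubt, 1 gene was higher, 4 were lower, 1 list member was lower and 1 gene was higher in the change from saline to SE, and Dio2 after SE was at -2.18. Leaving out 1 array gave 0 to 1 higher genes, 0 to 1 lower genes, 0 to 1 lower list members, 7 to 11 lower oligodendrocyte markers and Dio2 after SE from -1.86 to -1.23. Of the genes that changed sign, Lum, Slc32a1 and Tagln lay farthest from 0 with all arrays, at -0.25, -0.19 and -0.14. The values of opposite sign were Hr after SE at 0.00406 with quantile normalization repeated, Slc32a1 after SE at 0.0667 as a probe set mean, Thra after SE at -0.0328 with array weights, and, without both arrays, Thra at -0.0789, Lum after SE at 0.0264 and Tagln after SE at 0.0747. With 1 array left out, Dio3 after SE ran from -0.0761 to 0.0265, Fos after SE from -0.292 to 0.140, Lum from -0.447 to -0.0943, Hr from -0.0989 to 0.0884, Npas4 after SE from -0.675 to 0.196, Tagln from -0.247 to 0.00935 and Thra from -0.0582 to 0.0406. Of 950 list medians, 10 moved by more than the spread between arrays. The cause was not tested. With replicate numbers as a block, 0 genes were higher, 0 were lower and Dio2 after SE was at -1.41. Same-numbered SE arrays deviated together at r from -0.19 to 0.09. Among all groups, 4 of 24 same-numbered pairs exceeded 0.1, the highest at 0.34. Such correlations cannot tell whether equal numbers mark a litter or a day.

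With 4 arrays a group and a median standard error of 0.106, an adjusted p above 0.05 does not show equal levels. The log base was inferred, and the labels give no sex, batch or dissection time.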
